A study of Mus musculus with 64 samples.

Results

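The genes described here encode the parts of 2 cell contacts, the cadherin junction and the tight junction, in an RNA-seq series of mouse embryos, embryonic stem cells and liver. The 10 genes were chosen by name among the 23338 genes of the count files and not by a ranking of their values. Earlier results of these data were known when they were chosen. They are the cadherins Cdh1 and Cdh2, the catenin Ctnnb1, the claudins Cldn1, Cldn2, Cldn4 and Cldn6, and the tight junction genes Ocln, F11r and Tjp1. The series set males against females at 4 stages, and the genes were followed across those stages, from the eight-cell embryo to bulk liver. The study's methods do not say whether the embryos had compacted.

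Cadherins are membrane proteins that bind the same protein on the neighbouring cell and hold the cytoskeleton through catenins. E-cadherin, from Cdh1, is the cadherin that draws the blastomeres together when the mouse embryo compacts, and the tight junctions of the first epithelium, the trophectoderm, are built afterwards. In the liver, tight junctions of the hepatocytes seal the bile canaliculus from the blood side, with claudins setting which ions and molecules pass. Beta-catenin, from Ctnnb1, works both at the cadherin junction and as the transcriptional partner of the Wnt pathway.

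All 64 libraries came from the strain labelled C57BL/6, which the study's methods give as C57BL/6 J, and no label gives an engineered allele. The eight-cell embryos were 12 naturally mated embryos (6 male, 6 female), collected at 2.5 days post-coital from 4 litters and sequenced one by one from amplified cDNA. The 2i ES cells were 4 lines (2 male, 2 female) derived from eight-cell embryos in medium with inhibitors of MEK and GSK3 and with LIF. Inhibition of GSK3 is known to block the degradation of beta-catenin, the protein from Ctnnb1. No protein was measured in this series, and an effect of the medium was not tested. The fetal livers were 24 livers of late gestation (12 male, 12 female) and the adult livers 24 livers of mice 15 to 20 weeks old (12 male, 12 female). The sex of the embryos was assigned by the study from 2 sex-linked transcripts. The ES cell and liver libraries were made from total RNA with another kit than the embryo libraries, so embryo stage and library protocol cannot be told apart.

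Reads on genes numbered 4659656 to 7725432 in the embryos, 9857929 to 10386931 in the ES lines, 5145371 to 8499603 in the fetal livers and 1567583 to 4757610 in the adult livers. The embryo libraries detected 9407 to 11126 genes each, against 15942 to 16202 in the ES lines. Reads counted outside genes made up 8.6 to 14.4% of the embryo reads, 26.7 to 31.3% in the ES lines and 25.7 to 36.6% in the adult livers. In fetal liver they made up 39.9 to 49.0% in males and 34.1 to 38.1% in females, so that this share and sex cannot be told apart there. The labelled tissues carried their markers: 6 hepatocyte genes (Alb, Apoa1, Ttr, Hnf4a, Serpina1c and Cps1) summed to 19080 to 25960 CPM (counts scaled to library size, with TMM factors over the 64 libraries) in fetal and 41880 to 59160 CPM in adult liver, and 6 pluripotency genes to 2101 to 2585 CPM in the ES lines. Fetal liver is also a blood-forming organ, and its 6 erythroid markers summed to 4257 to 6366 CPM against 18.2 to 241 CPM in adult liver. In such bulk samples, fewer cells of a type and less RNA per cell cannot be told apart.

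A group of 5 fetal livers stood apart by markers of other organs, and results that rest on them are given with and without them. They were 5 of 24 (males 11 and 12, females 14, 15 and 24), each with a summed level of pancreatic acinar or intestinal markers over 50 CPM, a limit chosen after the values were seen. The limit serves for fetal liver only, because the 4 intestinal markers summed to 53.0 to 135 CPM in the adult livers. Female 14 carried 650 CPM of the 4 intestinal markers, where the other 23 fetal livers held 3.85 to 10.04 CPM, and 340 CPM of the 7 biliary markers, where the others held 26.8 to 134 CPM. Pancreatic markers summed to 104 CPM in male 11, 319 CPM in male 12, 80.5 CPM in female 14, 662 CPM in female 15 and 140 CPM in female 24, against at most 22.9 CPM in the rest.

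The upstream sequences of 3 claudins are shown because each had the highest mean level per kilobase of the 4 claudins at a stage, Cldn4 in embryos and ES lines, Cldn1 in fetal liver and Cldn2 in adult liver. In CPM without the length, adult Cldn1 (a mean of 124 CPM) was above adult Cldn2 (104 CPM). The sequences are from RefSeq on GRCm38.p6, which matched 8 of the 10 genes, and they end before the transcript start on the strand of the gene. Capitals mark any match, on either strand, to CAGGTG, the E-box that Snai and Zeb repressors read, to the GC box GGGCGG, to the TATA box TATAAA, to the CCAAT box, to the HNF1 motif GTTAAT or to the Grhl motif AACCGGTT. The Cldn4 sequence is chr5:134946935-134947134 on the minus strand, the Cldn1 sequence chr16:26371842-26372039 on the minus strand and the Cldn2 sequence chrX:139800608-139800807 on the plus strand.
Cldn4: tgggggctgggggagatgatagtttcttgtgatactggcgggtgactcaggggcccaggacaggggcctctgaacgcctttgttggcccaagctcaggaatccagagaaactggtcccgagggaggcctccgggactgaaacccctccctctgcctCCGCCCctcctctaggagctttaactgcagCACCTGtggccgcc
Cldn1: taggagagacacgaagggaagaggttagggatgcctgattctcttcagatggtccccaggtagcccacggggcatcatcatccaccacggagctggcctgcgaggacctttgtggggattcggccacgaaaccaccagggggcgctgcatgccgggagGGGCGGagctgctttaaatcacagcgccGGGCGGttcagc
Cldn2: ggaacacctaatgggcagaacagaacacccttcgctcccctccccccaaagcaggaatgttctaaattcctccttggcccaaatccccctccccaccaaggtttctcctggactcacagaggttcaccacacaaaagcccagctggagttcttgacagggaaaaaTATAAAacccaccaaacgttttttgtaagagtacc
The Cldn4 sequence held 1 CAGGTG, a motif found in 13.9% of the 32851 promoters over the same 200 bases, and 1 GC box. The Cldn1 sequence held 2 GC boxes, a motif in 31.1% of all promoters. It was 62.1% GC with 12 CpG. The Cldn2 sequence held a TATA box, a motif in 9.96% of all promoters, and was 50% GC with 2 CpG, against a median of 53.0% and 5 CpG. A match is a description of letters and not evidence of binding.

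**Figure D1:**
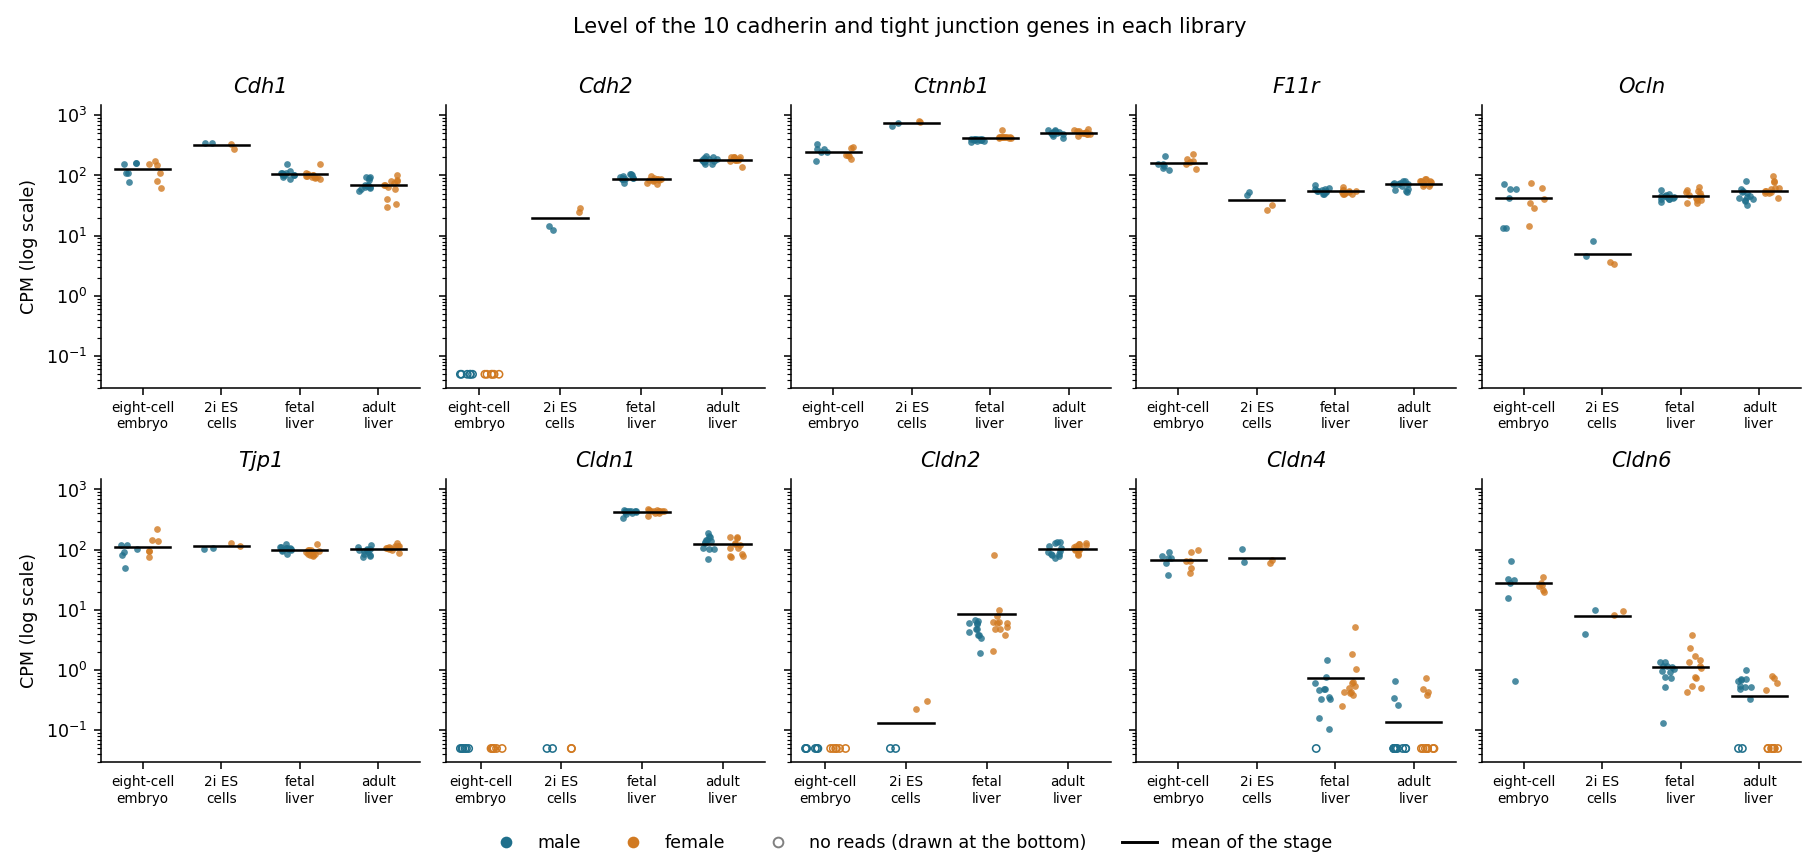
Level of each of the 10 genes in the 64 libraries, in CPM on a log scale, by stage. Each point is a library coloured by sex, the line is the mean of the stage, and open points at the bottom are libraries with no read. Cdh2, Cldn1 and Cldn2 had no read in any embryo, whereas Cldn4 had 7 reads over the adult livers and Tjp1 kept a mean of 98.6 to 114 CPM in all 4 stages.

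The proportion of the 2 cadherins differed between the stages. Levels are given for single libraries and as mean ± SD. Cdh1 (chr8:106603351-106670246, mm10) was at 61.6, 129 and 175 CPM in the lowest, median and highest of the 12 embryos. In the ES lines it was at 350 and 346 CPM in the males and 334 and 275 CPM in the females. Every ES line was above every library of the other stages. In fetal liver Cdh1 ran from 86.1 through a median of 103 to 155 CPM and in adult liver from 30.2 through 69.5 to 101 CPM. The stage means were 126 ± 38.9 (embryos, n = 12), 326 ± 34.8 (ES, n = 4), 105 ± 16.9 (fetal, n = 24) and 69.4 ± 18.1 CPM (adult, n = 24). The 2 highest fetal values, 155 CPM in male 11 and 153 CPM in female 14, belonged to livers that stood apart.

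Cdh2, which encodes N-cadherin (chr18:16588877-16809246), was lower in the embryos than in the ES lines, as Cdh1 was, but ran the other way from the ES lines to adult liver. It had 0 reads in all 12 embryos, which together allow up to 0.0410 CPM at 3 reads. The ES lines held 14.6 and 12.2 CPM in males and 24.9 and 28.3 CPM in females. Fetal livers held 71.1, 88.8 and 107 CPM (lowest, median, highest) and adult livers 136, 184 and 207 CPM. The 4 stages did not overlap for Cdh2, the only one of the 10 genes for which every stage stood clear of the others. Its mean was 20.01 ± 7.80 CPM in ES (n = 4), at least 488-fold above the embryos, then 89.0 ± 8.75 CPM in fetal (n = 24) and 183 ± 17.4 CPM in adult liver (n = 24).

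Per kilobase of exon, Cdh2 made up none of the summed level of the cadherin pair in the embryos. Its share was 3.46 ± 1.65% in ES lines, 32.6 ± 3.05% in fetal liver and 60.4 ± 7.78% in adult liver. Adult livers ranged from 43.4 to 78.6%, so the lowest still held more Cdh1 than Cdh2 by this measure. In CPM without the length, every adult liver held more Cdh2 (136 to 207 CPM) than Cdh1 (30.2 to 101 CPM). By the length of the longest transcript the adult means were 37.8 CPM per kilobase for Cdh2 and 15.7 for Cdh1.

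Ctnnb1 (chr9:120929216-120960507) was the most abundant of the 10 per kilobase in ES and adult liver. It was at 174, 247 and 329 CPM (lowest, median, highest) in the embryos. The ES lines held 670 and 731 CPM in males and 784 and 806 CPM in females. Fetal livers ran from 354 through 414 to 568.2 CPM and adult livers from 415 through 509 to 598 CPM. The embryos were below every other library and the ES lines above every other library, whereas the 2 liver stages overlapped. The highest fetal value, 568.2 CPM, was female 14, and without it the fetal mean was 410 ± 24.6 CPM (n = 23) against 416 ± 40.3 CPM with it.

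The claudins split into an early and a liver group. Cldn4 (chr5:134945119-134946934), a sealing claudin, was at 37.3, 67.9 and 97.7 CPM (lowest, median, highest) in the embryos. The ES lines held 62.9 and 103 CPM in males and 68.3 and 60.0 CPM in females, within the range of the embryos but for 1 line. In liver it was almost absent. The fetal mean was 0.747 CPM with a maximum of 5.19 CPM in female 14, and 17 of 24 adult livers had no read, with 7 reads over the whole group. The mean of the embryos was 91.5 times that of fetal liver, and the ES mean 98.5 times. Without female 14 the fetal mean was 0.553 CPM and without the 5 livers 0.442 CPM, so these ratios are larger without them.

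Cldn6 (chr17:23679249-23682446), a claudin of early embryonic epithelia, was at 0.649, 27.4 and 65.4 CPM (lowest, median, highest) in the embryos. The lowest was male 3, with 3 reads, and the next was at 15.6 CPM. The ES lines held 9.96 and 3.91 CPM in males and 9.66 and 8.25 CPM in females. Fetal livers ran from 0.132 to 3.81 CPM, the highest being female 15, and adult livers from 0 to 1.01 CPM. Because of embryo male 3 the embryos overlapped each other stage, although the other 11 embryos lay above every ES line and liver.

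Cldn1 (chr16:26356642-26371841), a barrier claudin of many epithelia, had 0 reads in the 12 embryos and in the 4 ES lines. In fetal liver it was at 331, 437 and 468 CPM (lowest, median, highest), and in adult liver at 69.9, 126 and 191 CPM. No fetal liver was as low as any adult one. The mean was 427 ± 30.5 CPM in fetal liver (n = 24), at least 5769-fold above the ES lines, and 124 ± 33.5 CPM in adult liver (n = 24).

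Cldn2 (chrX:139800828-139811386), which forms pores for cations, had 0 reads in the embryos and in the 2 male ES lines, with 3 and 4 reads in the female lines. Fetal livers ran from 1.91 through a median of 5.55 to 80.5 CPM and adult livers from 72.1 through 105 to 134 CPM. Female 14 was the 80.5 CPM and the only fetal liver to reach the adult range, the next highest being 9.92 CPM in female 15. Female 14 also carried 461 CPM of Fabp2 and 175 CPM of Vil1, genes of the intestinal brush border and enterocyte, where the other fetal livers had at most 4.84 CPM of either. The fetal mean was 8.40 ± 15.5 CPM with female 14 (n = 24), 5.27 ± 1.78 CPM without it (n = 23) and 5.30 ± 1.39 CPM without the 5 livers (n = 19). The adult mean was 104 ± 19.1 CPM (n = 24), at least 2538-fold above the embryos.

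Of the summed level of the 4 claudins per kilobase, Cldn4 made up 70.5 ± 13.9% and Cldn6 29.5 ± 13.9% in the embryos. In the ES lines Cldn4 made up 89.0 ± 4.83%. In fetal liver Cldn1 made up 96.2 ± 5.13%, with the lowest share, 72.5%, in female 14. In adult liver Cldn2 made up 54.98 ± 8.10% and Cldn1 44.5 ± 7.80%. The ranges of these adult shares overlapped. By mean share per kilobase no single claudin led at all 4 stages, and the claudin that led each liver stage by this measure was without a read in the embryos.

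**Figure D2:**
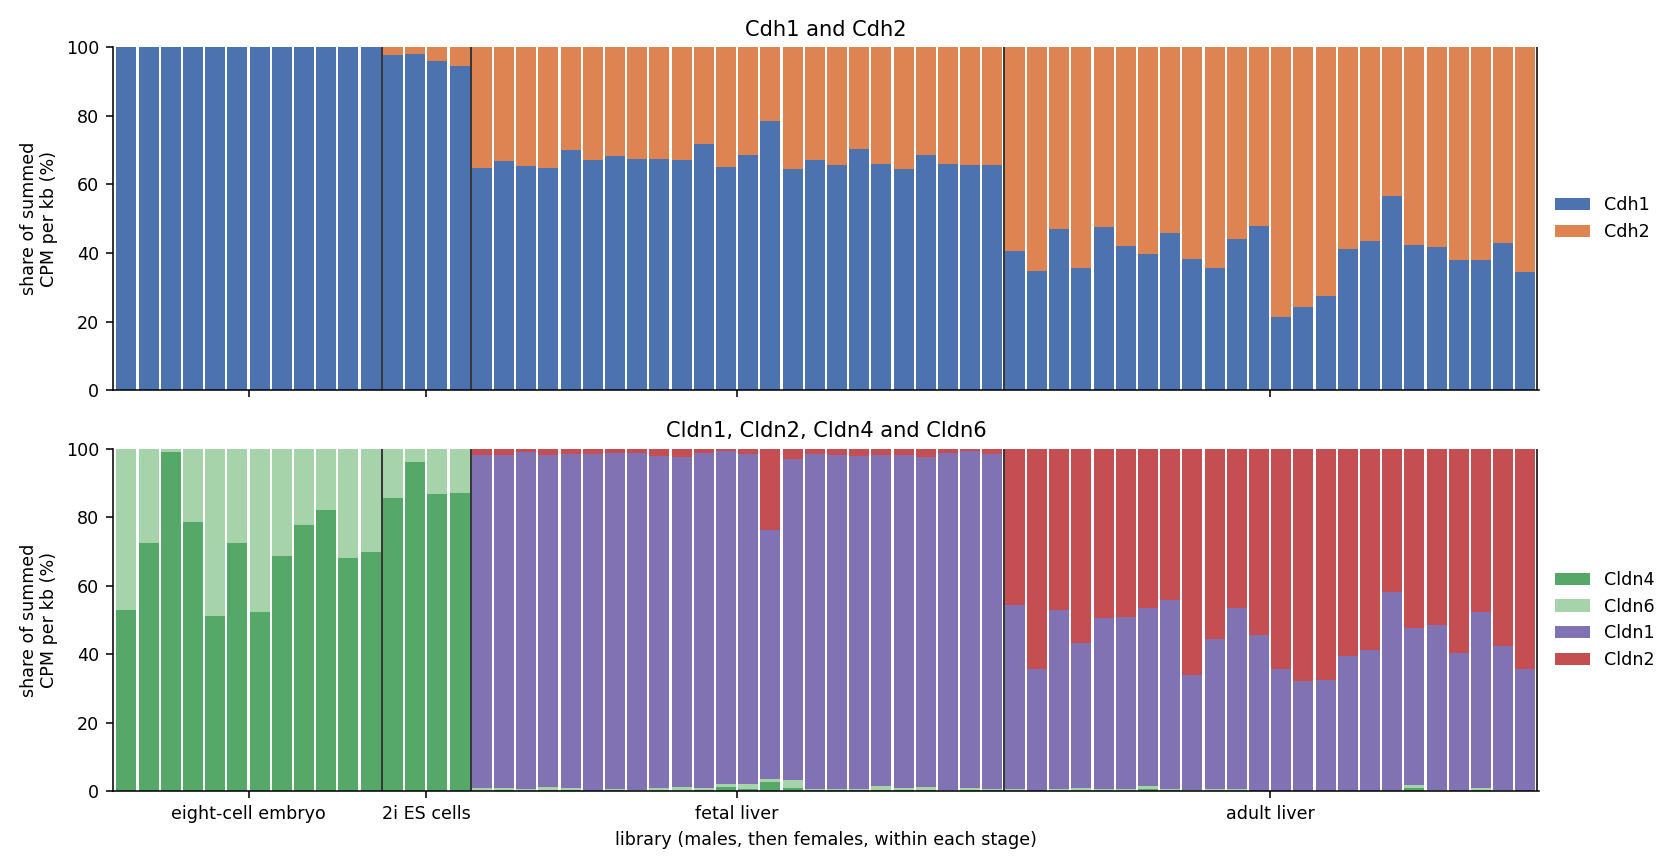
Share of the summed CPM per kilobase of exon, in percent, held by Cdh1 and Cdh2 (upper panel) and by Cldn1, Cldn2, Cldn4 and Cldn6 (lower panel), 1 bar per library, males then females within each stage. Cdh2 went from 0% in the embryos to a mean of 60.4% in adult liver, and the tall Cldn2 share in 1 fetal bar, 23.9%, is female 14.

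The other tight junction genes had reads at every stage. Tjp1 (chr7:65296165-65527781) encodes ZO-1, the scaffold under the junction. It was at 48.8, 100 and 216 CPM (lowest, median, highest) in the embryos and at 108, 102, 128 and 117 CPM in the ES lines. It ran from 77.5 to 125 CPM in fetal and from 74.9 to 130 CPM in adult liver. All stages overlapped, and the stage means lay between 98.6 and 114 CPM. Ocln (chr13:100496507-100552718), the tetraspan protein occludin, was at 13.5, 41.4 and 73.8 CPM in the embryos. The ES lines held 8.28 and 4.55 CPM in males and 3.70 and 3.39 CPM in females, below every other library. Fetal livers ran from 34.3 to 64.5 CPM and adult livers from 32.3 to 96.7 CPM. F11r (chr1:171437535-171464603), which encodes the adhesion molecule JAM-A, was at 123, 157 and 229 CPM in the embryos, above every other library. The ES lines held 52.7 and 48.1 CPM in males and 32.1 and 26.6 CPM in females. Fetal livers ran from 48.9 to 69.1 CPM and adult livers from 53.5 to 88.8 CPM.

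Within a stage, genes were ordered by CPM per kilobase of merged exons. In the ES lines Ctnnb1 led at 144 ± 11.7, then Cdh1 at 71.3 ± 7.61 and Cldn4 at 40.5 ± 10.9 CPM per kilobase, while F11r (14.97 ± 4.69) and Tjp1 (14.5 ± 1.44) did not differ beyond their spread. In fetal liver Cldn1 (88.2 ± 6.30) and Ctnnb1 (80.2 ± 7.77) stood above Cdh1 (23.1 ± 3.70) and F11r (20.8 ± 1.93), and the members of each of these pairs overlapped. In adult liver Ctnnb1 was at 98.4 ± 7.78 CPM per kilobase, and the next 4, Cldn2 (31.3 ± 5.75), F11r (27.3 ± 3.55), Cldn1 (25.7 ± 6.91) and Cdh2 (22.7 ± 2.16), overlapped in their ranges. In the embryos F11r (61.6 ± 12.2) came before Ctnnb1 (47.5 ± 8.86) and Cldn4 (37.6 ± 10.7), again with overlap, and there amplified cDNA need not cover long transcripts evenly. With the length of the longest transcript Ctnnb1 came first at all 4 stages, and Cdh2 moved from rank 5 to rank 2 in adult liver.

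Adult liver was compared with fetal liver, both as bulk samples that hold other cells beside the epithelium. Cdh2 rose 2.22-fold (log2 1.15, SE 0.042, adjusted p = 4.3e-32 by edgeR's quasi-likelihood test) and Cldn2 rose (log2 3.80, SE 0.26, adjusted p = 4.4e-18). Cldn1 fell by 1.67 on the log2 scale (SE 0.080, adjusted p = 1.3e-25). A gene was called here at an adjusted p under 0.05 over all genes and a change of over 2-fold. Without female 14 the log2 value of Cldn2 was 4.397, and it was 4.38 without the 5 livers. Cdh1 (log2 -0.49, SE 0.089), F11r (0.50, SE 0.046), Ctnnb1 (0.41, SE 0.034), Ocln (0.39, SE 0.081) and Tjp1 (0.16, SE 0.054) had adjusted p-values of at most 0.0053 and were under the 2-fold limit. Cldn4 and Cldn6 were too low in liver to be tested. Of 8 genes tested, 2 were called higher and 1 lower, beside 19.4% and 23.2% of the 12647 genes tested, so the count of called genes was not far from the background.

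The direction of the smaller differences rested on the scaling. Scaled by library totals alone the median gene moved by -0.56 on the log2 scale, the genes called higher and lower over all genes went from 2448 and 2939 to 1439 and 4662, and of the 10 genes 1 was called higher and 2 lower. F11r (-0.06), Ocln (-0.17), Ctnnb1 (-0.16) and Tjp1 (-0.40) then had log2 values below 0, Cdh1 was called lower (-1.06), and Cdh2 kept a value of 0.59 without being called. Cldn1 and Cldn2 were called in the same direction under every scaling tried. The erythroid markers given above did not overlap between the 2 stages, and their part in these differences was not tested.

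**Figure D3:**
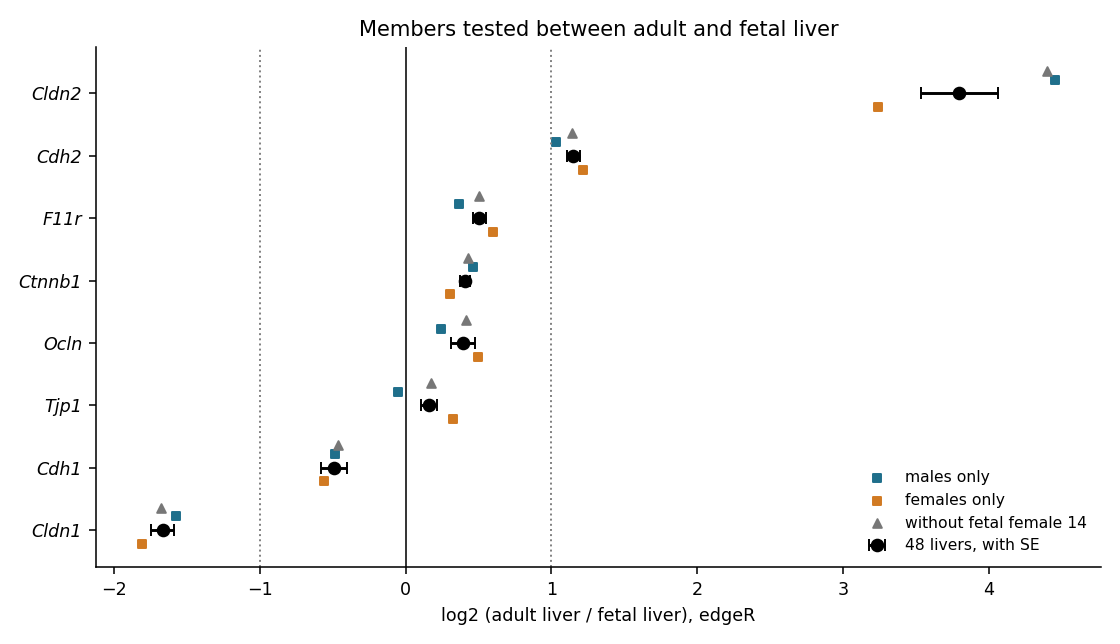
log2 ratio of adult to fetal liver for the 8 genes tested, by edgeR. Black points with bars are the value in the 48 livers with its SE. The smaller points are the values in males only, in females only and without fetal female 14. Cldn2, Cdh2 and Cldn1 lay furthest from 0, and the other 5 lay between -0.49 and 0.50.

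The ES lines were set against liver. Against fetal liver Cdh1 rose 3.33-fold (log2 1.74, SE 0.093), Cldn4 107-fold (log2 6.74, SE 0.30) and Cldn6 7.50-fold (log2 2.91, SE 0.28). Cdh2 fell by 2.05 on the log2 scale (SE 0.14) and Ocln fell by 3.07 (SE 0.19), and Cldn1 and Cldn2 were also called lower. Without the 5 fetal livers the log2 value of Cldn4 was 7.41. Adjusted p-values of all 7 were at most 5.4e-05. Ctnnb1 was at log2 0.95 (SE 0.053, adjusted p = 3.3e-17), just under the 2-fold limit. The 3 of 10 called higher and 4 of 10 called lower stood beside 23.8% and 32.4% of all genes. Against adult liver the same comparison gave log2 values of 2.24 (SE 0.16) for Cdh1, -3.21 (SE 0.14) for Cdh2, 8.87 (SE 0.21) for Cldn4, 4.28 (SE 0.30) for Cldn6 and -3.43 (SE 0.25) for Ocln. There 3 of 10 were called higher and 4 of 10 lower, beside 31.3% and 33.3%. By library totals the calls over all genes in this comparison went from 3942 higher and 4194 lower to 5616 and 3224, and Ctnnb1 was then called higher as well (1.26 against 0.55).

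The embryos were set against the ES lines, which were derived from embryos of that age. F11r rose 4.18-fold (log2 2.06, SE 0.22, adjusted p = 6.4e-07 by edgeR), Ocln rose 8.83-fold (log2 3.14, SE 0.56, adjusted p = 0.00016) and Cldn6 rose 3.49-fold (log2 1.81, SE 0.66, adjusted p = 0.026). Ctnnb1 fell by 1.59 (SE 0.14, adjusted p = 5.2e-08) and Cdh1 fell by 1.36 (SE 0.22, adjusted p = 6.8e-05) on the log2 scale, and Cdh2 was called lower with no read in the embryos, a gene that passed the filter through the ES lines alone and had to differ. Cldn4 (-0.09, SE 0.25) and Tjp1 (-0.04, SE 0.25) had adjusted p-values of 0.77 and 0.91, and the SE leaves room for a difference of either sign. The 3 of 8 higher and 3 of 8 lower stood beside 21.5% and 31.4% of all genes, whose median log2 was -0.44. Cldn6 lost its call without ES line 2 (1.54, adjusted p = 0.089) or line 4 (1.81, adjusted p = 0.057), and with DESeq2 size factors (1.46, adjusted p = 0.061). With the share of reads outside genes as a covariate, which does not overlap between the 2 stages, Ctnnb1 alone kept its call.

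The embryos were also set against the livers. Against fetal liver F11r rose 2.85-fold (log2 1.51, SE 0.068), Cldn4 90.2-fold (log2 6.50, SE 0.33) and Cldn6 23.3-fold (log2 4.54, SE 0.32), and Cdh2, Cldn1 and Cldn2 were called lower. Without the 5 fetal livers the log2 value of Cldn4 was 7.17. Cdh1 (0.20, SE 0.11, adjusted p = 0.0997), Tjp1 (0.11, SE 0.12) and Ocln (-0.15, SE 0.18) did not pass, and Ctnnb1 was at -0.81 (SE 0.069), under the limit. The counts were 3 of 10 higher and 3 of 10 lower, beside 22.7% and 51.4% of all genes, whose median log2 was -1.15. Against adult liver F11r rose 2.11-fold (log2 1.08, SE 0.073) and Cldn4 was called higher, while Ctnnb1 fell by 1.14 (SE 0.069) and Cdh2, Cldn1 and Cldn2 were called lower. That made 2 of 9 higher and 4 of 9 lower, beside 27.7% and 47.7%. With DESeq2 size factors the median gene moved by -0.44 and -0.50 in these comparisons, F11r against adult liver was at 0.59 and not called, and Ctnnb1 against fetal liver was called lower at -1.26. A gene near 0 at one stage passed the low-count filter through the other stage alone and had to differ, which holds for the calls of Cdh2, Cldn1, Cldn2, Cldn4 and Cldn6 in these comparisons, for that of Cdh2 between embryos and ES lines and for those of Cldn1, Cldn2, Cldn4 and Cldn6 between ES lines and liver.

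Variation within a stage also differed between the genes. Biological coefficients of variation from edgeR in the embryos were 0.687 for Cldn6 and 0.546 for Ocln but 0.241 for Ctnnb1 and 0.253 for F11r. The trend over all genes at the same levels was 0.590, 0.480, 0.289 and 0.309, so much of this contrast goes with level. In fetal liver Ctnnb1 was at 0.078 and Cldn1 at 0.075, both beside a trend of 0.102, and Cldn2 at 0.721 beside 0.178. The Cldn2 value holds female 14, without which the SD of its fetal level went from 15.5 to 1.78 CPM. In adult liver Cdh1 (0.252) and Cldn1 (0.242) were the most variable of the tested genes, and Ctnnb1 (0.084) the least. The trend at their levels was 0.1404, 0.1337 and 0.1445. Adult females 13, 14 and 15 had the lowest Cdh1, at 30.2, 34.0 and 40.9 CPM.

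Cdh1 and Cldn1 were correlated across the adult livers. Pearson's r was 0.74 and Spearman's rho 0.78 over the 24 livers, the highest of the 45 pairs among the 10 genes, which is why it is described. Within males r was 0.72 and within females 0.77, with 12 livers each, and without the 2 livers farthest from the median of Cdh1 r was 0.71. In fetal liver the same pair had an r of -0.20 and a rho of -0.15 over 24 livers. The livers share the scaling and the strain, and the relation is given as a description.

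**Figure D4:**
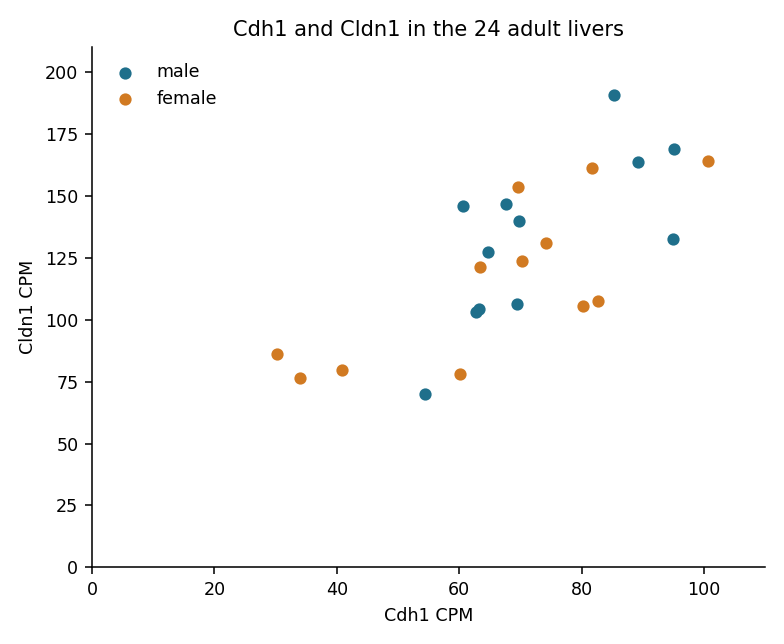
Cdh1 against Cldn1 in CPM in the 24 adult livers, each point a liver coloured by sex. Livers of both sexes lay over the range, with Cdh1 from 30.2 to 101 CPM and Cldn1 from 69.9 to 191 CPM.

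The comparison the series was made for, males against females, was run within each stage, with a call at an adjusted p under 0.1 and a log2 value beyond 0.5. In the embryos 0 of 7 genes were called beside 0.264% of all genes, and no unadjusted p was under 0.05 among the 7. Adult liver gave 0 of 8 beside 9.49%. Adult Tjp1 (log2 -0.22, SE 0.072, adjusted p = 0.025 by edgeR), Ocln (-0.36, SE 0.13, adjusted p = 0.037) and F11r (-0.18, SE 0.071, adjusted p = 0.060) were lower in males but under the size limit. Adult male livers held 94.9 ± 13.4 CPM of Tjp1 and female livers 109 ± 10.3 CPM (n = 12 each).

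In the ES lines 2 of 8 were called beside 9.5% of all genes. Cdh2 was lower in the male lines (log2 -0.97, SE 0.16, adjusted p = 0.032 by edgeR) and F11r higher (0.80, SE 0.14, adjusted p = 0.035). With 2 lines a sex the values of the sexes did not overlap for either gene. Without female line 3 or 4 neither gene passed the test, and the lone female line was then assumed to vary like the male lines. The log2 values were -1.06 and -0.88 for Cdh2 (adjusted p = 0.28 and 0.41) and 0.94 and 0.66 for F11r (adjusted p = 0.27 and 0.42). In these fits of 3 lines no gene of the whole table was called by edgeR, with 1290 and 1163 genes at an unadjusted p under 0.05. Without male line 1 or 2 both genes were called, among 2606 and 3070 genes in place of 1205. All 4 mesothelial markers had reads in the ES lines, and their summed level was 5.19 and 4.12 CPM in the male lines and 26.3 and 32.2 CPM in the female lines. Their part in the Cdh2 difference was not tested.

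In fetal liver 1 of 8 was called beside 4.64% of all genes. Cldn2 was lower in males (log2 -1.30, SE 0.52, adjusted p = 0.065 by edgeR), with a male mean of 4.83 ± 1.46 CPM and a female mean of 11.96 ± 21.7 CPM (n = 12 each). Without female 14 the log2 value was -0.23 (SE 0.19, adjusted p = 0.37) and without the 5 livers -0.02 (adjusted p = 0.94), so the call rested on that 1 liver. DESeq2, which replaced the outlying count, gave -0.21 with an adjusted p of 0.44. Ctnnb1 was lower in males by less than the size limit (log2 -0.16, SE 0.045, adjusted p = 0.0079), at 354 to 409 CPM in the 12 males and 419 to 568.2 CPM in the 12 females, with no overlap. Cdh2 (log2 0.16, SE 0.050, adjusted p = 0.019) and Tjp1 (0.20, SE 0.064, adjusted p = 0.019) were higher in males, also under the size limit. The share of reads outside genes also did not overlap between the fetal sexes, and with it as a covariate 9 genes of the whole table were called in place of 600.

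The difference between the sexes was compared between the liver stages by an interaction term, and 1 of 8 genes was called beside 13.7% of all genes. That gene was Cldn2 (log2 1.22, SE 0.50, adjusted p = 0.066 by edgeR). The value was 0.17 without female 14 (adjusted p = 0.58). Tjp1 had the smallest adjusted p of the 8 (0.0024), at a log2 difference of -0.37 (SE 0.094), under the size limit. F11r (-0.23, adjusted p = 0.041), Ctnnb1 (0.17, adjusted p = 0.046) and Cdh2 (-0.18, adjusted p = 0.096) were under it too. Tjp1 was higher in males in fetal liver (105 ± 9.67 against 92.6 ± 12.3 CPM) and higher in females in adult liver (94.9 ± 13.4 against 109 ± 10.3 CPM). Over the settings tried, its fetal log2 value ran from 0.029 to 0.27 and its interaction from -0.43 to -0.15. In fetal liver sex and the share of reads outside genes cannot be told apart.

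**Figure D5:**
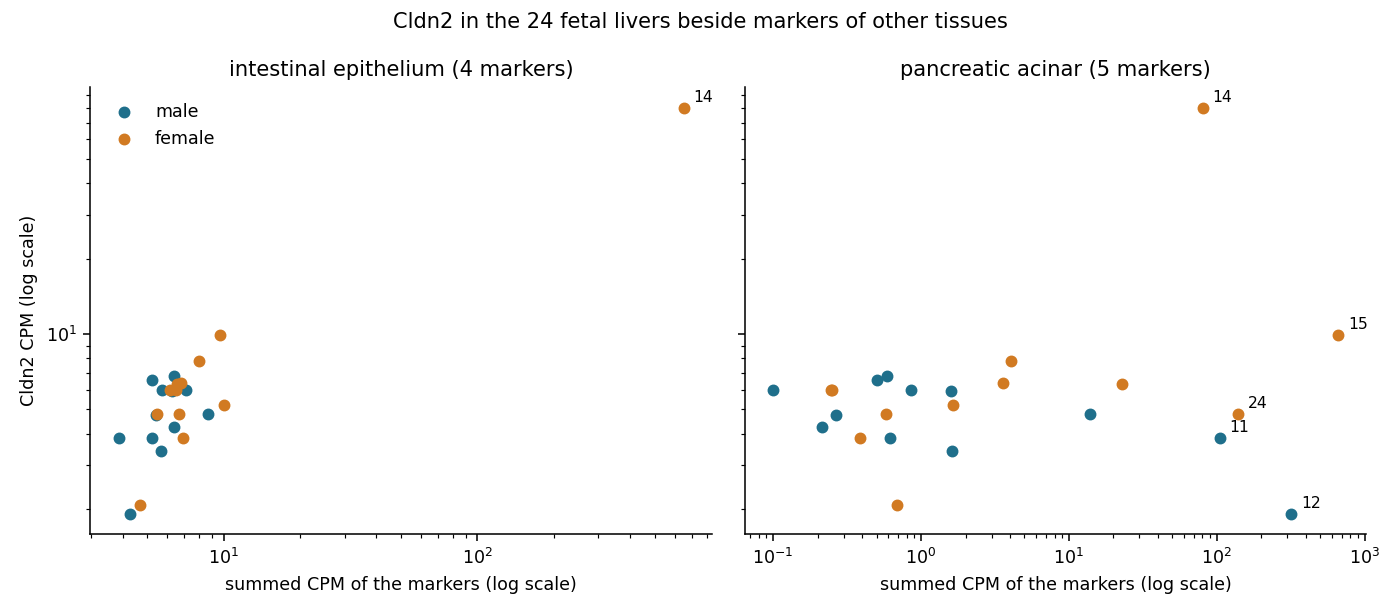
Cldn2 in CPM against the summed CPM of 4 intestinal markers (left) and 5 pancreatic acinar markers (right) in the 24 fetal livers, both axes on a log scale, points coloured by sex. Numbers name livers with a sum over 50 CPM, and the liver with no pancreatic marker read is drawn at 0.1. Female 14 stood alone in Cldn2 and in the intestinal markers, while the livers with pancreatic markers only had 1.91 to 9.92 CPM of Cldn2.

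Genes of these junctions were counted by list, and the lists include the genes described above. Cdh1, Cdh2 and Ctnnb1 belong to the cadherins and catenins. Tjp1, Ocln and F11r belong to the tight junction membrane and scaffold genes. For adult against fetal liver each count stands beside 19.4% of all genes called higher and 23.2% called lower. Between adult and fetal liver, 7 of 19 tight junction membrane and scaffold genes were called higher and none lower, with a median log2 of 0.50 beside -0.04 for all genes. By library totals 5 were higher and 1 lower. Among those called were Cgnl1, a junction scaffold, at 207 ± 28.1 against 39.9 ± 4.44 CPM, Lsr, a tricellular junction protein, at 170 ± 34.1 against 35.4 ± 3.66 CPM, and Tjp3, which encodes ZO-3, at 30.4 ± 6.10 against 2.80 ± 4.43 CPM, with a fetal median of 2.03 and a maximum of 23.5 CPM. Desmosome genes were called higher in 5 of 7 and lower in none, beside the same 19.4% and 23.2%, such as Dsg2 (log2 1.81, SE 0.064) and Perp (2.27, SE 0.057). Nectins were higher in 3 of 4 beside 19.4%. The 2 main connexins of the hepatocyte, Gjb1 (677 ± 74.2 against 184 ± 20.9 CPM) and Gjb2 (300 ± 37.3 against 34.2 ± 4.04 CPM), rose, and of 6 gap junction genes 2 were higher and 2 lower, beside 19.4% and 23.2%.

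Of 9 claudins tested between adult and fetal liver, Cldn1 and Cldn2 included, 4 were called higher and 3 lower, beside 19.4% and 23.2% of all genes. Cldn3 rose from 2.31 ± 1.89 CPM in fetal to 78.7 ± 15.5 CPM in adult liver. Cldn13 had a mean of 103 ± 16.7 CPM in fetal liver and no read at any other stage, so it passed the low-count filter through fetal liver alone and had to differ. Cldn15 fell, at 8.41 ± 3.47 and 1.05 ± 0.849 CPM, and its highest fetal value, 23.4 CPM, was female 14. In the embryos Cldn7 had the highest level of the claudins named here, 192 ± 76.1 CPM, and was called higher there than in the ES lines (1.68 ± 1.04 CPM, log2 6.89, SE 0.51).

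Cadherins and catenins were lower in the embryos than in the ES lines in 9 of 12 and higher in none, beside 31.4% and 21.5% of all genes. Cdh1, Cdh2 and Ctnnb1, given above, are among the 9. The median log2 was -2.17 for the list and -0.44 for all genes. Plekha7, a junction protein bound to p120-catenin, was at 1.79 ± 2.26 against 70.6 ± 4.42 CPM. Of 10 epithelial regulators 7 were higher in the embryos and none lower, beside 21.5% and 31.4% of all genes. Among them were Ovol2 (162 ± 65.5 against 3.26 ± 0.949 CPM) and Grhl2 (78.5 ± 27.9 against 3.96 ± 2.33 CPM), transcription factors that maintain epithelial identity. Crb3, the apical polarity protein, was at 201 ± 41.8 against 5.54 ± 4.32 CPM, in a polarity list with 2 higher and 7 lower of 14 beside the same 21.5% and 31.4%. Of 4 cadherin repressors tested against the ES lines, 1 was lower in the embryos and none higher, beside the same 31.4% and 21.5%. It was Zeb1, a repressor of Cdh1 (0.941 ± 2.22 against 27.96 ± 2.91 CPM). Against fetal liver 3 of 4 were lower and none higher, beside 51.4% and 22.7% of all genes. Against adult liver 3 of 4 were lower and 1 higher, beside 47.7% and 27.7%. Zeb2 had no read in the 12 embryos and a mean of 104 ± 11.3 CPM in fetal liver. Zeb1 and Plekha7 were too low to be tested within the embryos alone. Ovol1, an epithelial regulator, was too low within the ES lines alone and was tested within the embryos. Genes near 0 at either stage of a comparison passed the low-count filter through the other stage and had to differ. These list counts hold such genes.

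Of 13 genes that beta-catenin is known to switch on, 7 were called higher in the ES lines than in fetal liver and 4 lower, beside 23.8% and 32.4% of all genes. The median log2 was 2.84 for the list and -0.03 for all genes. Axin2, a feedback inhibitor of the pathway, was at 43.7 ± 10.1 CPM in ES against 1.41 ± 0.842 CPM, and Notum, a secreted Wnt inactivator, at 120 ± 36.4 against 0.354 ± 0.233 CPM. In adult against fetal liver 6 of 10 were higher and 1 lower, beside 19.4% and 23.2%, and Axin2 (10.8 ± 4.15 CPM) and Notum (54.3 ± 11.8 CPM) rose. Axin2 and Notum were too low to be tested within fetal liver alone. Nkd1, Lgr5 and Rnf43, of the same list, were too low within the ES lines alone and were tested within fetal liver. Genes near 0 at either stage of a comparison passed the low-count filter through the other stage and had to differ. These list counts hold such genes. In the embryos Axin2 was at 0.484 ± 1.13 CPM.

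By the correlation of log2 CPM over the 64 libraries, Cldn2 was most like Vipr1, Ces2e, Bco2, Rnase4 and Sult1b1 (r of 0.99 each), Cldn6 most like Rimklb (0.95), and Cdh1 most like Akap12 (0.86). These r values are across 4 stages that differ in most genes.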

How the data were processed

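RNA-seq reads were counted in 64 mouse libraries: 12 eight-cell embryos, 4 2i ES lines, 24 fetal and 24 adult livers. The authors deposited raw counts per gene, made by alignment to mm10 with TopHat2 2.0.4 and Bowtie2 2.1.0, removal of duplicates with Picard, SAMtools 0.1.18 and counting with HTSeq, with no normalization (versions from the submitters' processing notes). Whether counting used the strand is not given in the sources used here. Samples were grouped by the labels for stage and sex. The titles number the libraries of a group as separate samples, p-values measure the spread between them, and no 2 libraries were alike within sampling noise. The labels do not give the litter of an embryo, so litter could not be a term. Embryos of the same litter entered the tests as independent samples. Total reads on genes ranged from 1567583 to 10386931, and 3 reads over a stage corresponded to 0.0410 (embryos), 0.0740 (ES), 0.0185 (fetal) and 0.0453 CPM (adult), which covers counting error only.

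From the counts, CPM were computed with TMM factors over all libraries. Stages were compared in pairs with edgeR 4.0.16 in R 4.3.3 (filterByExpr, robust quasi-likelihood F test, two-sided, sex as covariate, Benjamini-Hochberg over all genes tested), and sexes within stages and an interaction of stage and sex in the 48 livers likewise. The SE of a log2 value is its size divided by the root of its F statistic. Log2 CPM for correlations used a pseudocount of 0.5. Levels per kilobase used merged exons of the GENCODE vM21 annotation of GRCm38, which is the mm10 assembly, and gene places are from it. A fold over a stage with no read is a lower bound against 3 reads over that stage. Genes other than the 10 were named by rule, up to 4 per list and comparison with the largest log2 value among called genes whose mean reached 5 CPM at the higher stage. The 10 genes, the lists and the tests were chosen with earlier results of these data known. Alternatives were DESeq2 1.42.0, its size factors, library totals, no filter, limma 3.58.1 (voom), one fit of 4 stages, a covariate, the replicate number as block, adult livers with at least 2000000 reads and left-out libraries. Leaving out fetal livers was chosen after seeing the data. Tables were made with Python 3.11.15, numpy 2.4.6, pandas 2.3.3 and scipy 1.17.1. Tests were tried on simulated data first.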

Additional observations from a re-analysis of the deposited data

Results flagged for a closer look

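The difference between males and females in Cldn2 was not the same in fetal and adult liver by the interaction term, with a log2 difference of 1.22 (SE 0.50, adjusted p = 0.066 by edgeR over all genes). Males were below females by 1.302 on the log2 scale in fetal liver and by 0.11 in adult liver. One fetal liver, female 14, held 80.5 CPM of Cldn2 and 650 CPM of intestinal markers. Without it the log2 difference was 0.17 (SE 0.21, adjusted p = 0.58), and without the 5 fetal livers that carried intestinal or pancreatic markers it was -0.03 (adjusted p = 0.94).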

How the results depend on the processing

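Over the alternatives, 776 of 816 values of the 10 genes kept their direction, where called, and their side of the threshold, 27 lost and 12 gained a call, and 1 reversed: the Cldn2 interaction, -0.031 without the 5 fetal livers. In adult against fetal liver the genes called higher went from 2 to 1 by library totals, and those called lower from 1 to 3 with DESeq2, with every gene of at least 1 read and with one fit of 4 stages, where low genes are also tested, and to 2 by library totals. With the share of reads outside genes as covariate, embryos against ES gave 0 higher and 1 lower, the ES sex comparison 1 call, fetal sex 0 and the interaction 0. Without female 14, and without the 5 livers, fetal sex and the interaction gave 0. Embryos against adult liver gave 1 higher with DESeq2 size factors. Leaving out 1 ES line gave 0 to 4 calls between the sexes of ES. The causes of these changes were not tested except as given. Over all genes, calls between ES sexes ran from 0 to 3070 across left-out lines (1205 with all 4), embryos against ES gave 501 higher and 208 lower with the covariate (2685 and 3915 without it), and fetal sex 9 in all (600 without it). The replicate number as block in adult against fetal liver left 2 higher and 1 lower, with Cdh2 at 1.15, Cldn1 at -1.71 and Cldn2 at 4.24. Same-numbered livers did not deviate together (r from -0.065 to 0.038 over 24 pairs, 1 adult liver best with its own number), so the numbers do not pair them. Cldn2 in ES against fetal liver was at -5.53 with an adjusted p of 0.053 in limma voom, and Cldn4 in embryos against fetal liver at 3.05 (adjusted p = 0.21) with the covariate. The adult livers had the lowest median depth of the 4 stages, and 3 reads in a single adult library corresponded to 0.631 to 1.91 CPM.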
